A study of Mus musculus with 6 samples.

Results

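The MAPK feedback genes described here are the dual-specificity phosphatases Dusp1, Dusp2, Dusp4, Dusp5, Dusp6, Dusp10 and Dusp16 and the Sprouty genes Spry1, Spry2 and Spry4, 10 genes in all, and they were chosen as every probe that carries one of these symbols in the platform annotation of the deposited value table. Of the 10 genes, 7 were measured, on 16 probes, among 8734 named genes measured in all. The 3 Sprouty genes had no named probe among those tested and were not analysed here.

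The cells were RVP3, an MHC class I-deficient murine tumour line of C57BL/6 strain background that, in the study, did not respond to IFNγ. All 6 samples come from this single line grown in vitro, and the labels name no vehicle for the controls, which received no inhibitor. The 3 treated cultures, called DAC/TSA here, were kept in fresh medium for 24 h, then in 3 µM 5-2´-deoxyazacytidine (DAC, an inhibitor of DNA methyltransferases) for 48 h, and for a last 24 h in 30 ng/ml Trichostatin A (TSA, an inhibitor of histone deacetylases). Total RNA of 3 control and 3 DAC/TSA cultures, described as biological replicates, was hybridised to Illumina Mouse WG-6 bead arrays, and the comparison asked which transcripts were altered by the epigenetic agents. DAC and TSA were always given together, so the parts of the 2 agents cannot be told apart.

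MAP kinases (ERK, JNK and p38) carry growth factor and stress signals from the membrane to the nucleus. Dual-specificity phosphatases shut them off by removing phosphate from both the threonine and the tyrosine of the activation loop, and many of their genes are themselves switched on by MAPK signalling, which closes a negative feedback loop. Sprouty proteins act in the same loop further upstream, where they restrain the passage of the signal from receptor tyrosine kinases to Ras and Raf.

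Each array detected 13227 to 15056 (29.2% to 33.3%) of its 45281 probes. The correlation of arrays was 0.992 to 0.997 inside a group and 0.944 to 0.950 across groups, and replicate 3 stood apart in both groups by a high mean and a low median signal. Of the 10 markers listed for each of 4 cell types, 4 mesenchymal ones were measured (1 raised, 0 lowered), with a summed signal of 3525 to 3980 in controls and 6347 to 6414 after DAC/TSA, and Fn1, Sparc and Vim were detected on every array. The 5 epithelial markers measured (2 raised, 0 lowered) summed to 2330 to 3051 and 2570 to 3204, with Krt8, Krt14 and Krt18 detected throughout. The 3 endothelial markers measured summed to 397 to 442 and 1710 to 1956, but only Egfl7 was raised (log2 change 3.24), Esam was lowered (-0.68) and Kdr did not pass (-0.05), while Pecam1 and Cdh5 were not measured. The 6 leukocyte markers measured summed to 470 to 492 and 549.5 to 579. Of these, Lyz2, Cd52 and Laptm5 were raised and detected only on the 3 treated arrays, Cd79b was lowered and detected only on the 3 control arrays, and Cd14 and Coro1a did not pass, while Ptprc and Cd3e were not measured. The part of these shifts in the results below was not tested.

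Of the 7 measured phosphatase genes, 5 changed, in both directions. Dusp6 and Dusp4 were raised and Dusp1, Dusp5 and Dusp10 were lowered at an adjusted p under 0.01 (limma, Benjamini-Hochberg over all 16760 probes tested), whereas Dusp2 and Dusp16 did not pass. The background was high: 27.0% of the 8734 genes were raised and 25.8% lowered, and the 2 raised and 3 lowered of 7 are to be read against these shares. Their changes were moderate. None of the 7 reached 2-fold, which 10.9% of all genes did. Their log2 changes ran from -0.69 to 0.94. The median of -0.30, against -0.02 over all genes, is the value of Dusp16, which did not pass. In each of the 7 genes the 3 treated arrays lay entirely above (3 genes) or entirely below (4 genes) the 3 control arrays, which held for 69.2% of all genes. All 7 were detected on all 6 arrays by the probe that stands for the gene, which is its brightest.

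**Figure D1:**
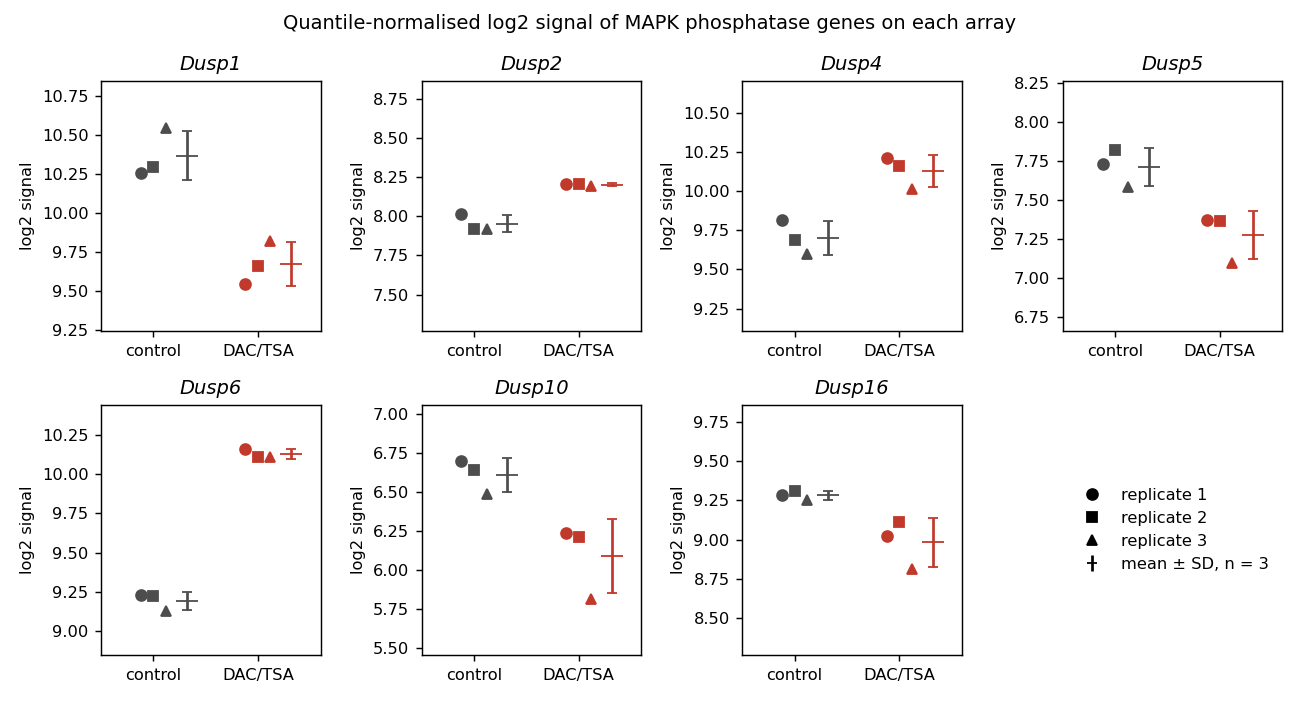
Quantile-normalised log2 signal of the 7 measured phosphatase genes on each control and DAC/TSA array, with markers for the replicate number and bars for the mean ± SD (n = 3). The 3 treated arrays of Dusp6 sat between 10.11 and 10.17, above the 9.13 to 9.23 of the controls, while those of Dusp1, at 9.54 to 9.82, sat below controls of 10.26 to 10.54.

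Dusp6 encodes a cytoplasmic phosphatase that is selective for ERK and is one of the best known transcriptional targets of ERK itself. Its log2 signal was 9.23, 9.22 and 9.13 in control replicates 1, 2 and 3 and 10.17, 10.11 and 10.11 in DAC/TSA replicates 1, 2 and 3. The groups stood far apart and each was tight, with means of 9.19 ± 0.057 and 10.13 ± 0.030 (SD, n = 3). The difference was 0.94 ± 0.084 (SE) on the log2 scale, a 1.92-fold rise with a 95% interval of 0.76 to 1.12 for the log2 change (limma adjusted p = 1.33e-06). Only 12.7% of all genes changed more in size, the smallest such share among the 7 phosphatase genes. A pair of dimmer Dusp6 probes was detected on no control array and on all 3 treated arrays. One of them differed by at least 1.05-fold, with a fitted log2 change of 0.32 (adjusted p = 0.0127), and the other had a fitted change of 0.19 (adjusted p = 0.0694), too close to the detection limit for a bound above 1. The mean over the 3 probes was therefore smaller, 0.48 (adjusted p = 0.000244).

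Dusp4, a nuclear phosphatase of ERK and JNK that is likewise induced by MAPK signalling, had log2 signals of 9.82, 9.69 and 9.60 in controls and of 10.21, 10.16 and 10.02 after DAC/TSA. All treated cultures exceeded all controls, by a margin of about the spread within a group. The rise was 0.43 ± 0.095 on the log2 scale, or 1.35-fold (95% interval of the log2 change 0.22 to 0.64, limma adjusted p = 0.00189). The gene missed the threshold when a treated culture was left out, with an adjusted p of 0.0103 without DAC/TSA replicate 1 and of 0.0108 without DAC/TSA replicate 2. Dusp4 was also the gene with the most probes. The dimmest of its 4 probes rose by 0.77 ± 0.10, or 1.70-fold (adjusted p = 4.05e-05), from a level at which only 2 of 3 control arrays detected it, and the middle ones gave 0.34 (adjusted p = 0.0393, with overlapping groups) and 0.30 (adjusted p = 0.0245, without overlap).

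Dusp1 was lowered more than any other of the 7 genes. It encodes a nuclear phosphatase of p38, JNK and ERK and is a classical immediate early gene, induced within minutes by serum and stress. Its log2 signal was 10.26, 10.29 and 10.54 in controls and 9.54, 9.66 and 9.82 in treated cultures. The replicate 3 array was the highest in both groups and the groups did not overlap. Means of 10.36 ± 0.16 and 9.68 ± 0.14 (SD, n = 3) gave a log2 change of -0.69 ± 0.11, a 1.61-fold fall (95% interval -0.92 to -0.46, limma adjusted p = 0.000135). On this single probe, 23.5% of all genes changed more in size.

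Dusp5, a nuclear phosphatase specific for ERK, fell to a smaller extent. Log2 signals of 7.73, 7.82 and 7.58 in controls stood against 7.37, 7.36 and 7.10 after treatment. Here the replicate 3 array was the lowest of both groups, opposite to Dusp1, and the highest treated value remained below the lowest control. The log2 change was -0.43 ± 0.10, or 1.35-fold lower (95% interval -0.66 to -0.21, limma adjusted p = 0.00327). Like Dusp4 it missed the threshold when single cultures were left out, with an adjusted p of 0.0137 without control replicate 1 and of 0.0187 without control replicate 2.

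Dusp2, a nuclear phosphatase best known from activated lymphocytes, stayed under the threshold. Its brighter probe read 8.02, 7.92 and 7.92 in controls and 8.21, 8.21 and 8.19 in DAC/TSA cultures, which were all higher and closely spaced. The difference of 0.25 ± 0.083 on the log2 scale (95% interval 0.07 to 0.43) had a limma adjusted p of 0.0210. A fit with the replicate number as a block gave an adjusted p of 0.00674. The dimmer probe differed by 0.17 with overlapping groups (adjusted p = 0.159).

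Dusp10 and Dusp16 encode phosphatases that act on p38 and JNK rather than on ERK. Dusp10 was near the lower end of the measured range, with log2 signals of 6.70, 6.64 and 6.49 in controls and 6.24, 6.21 and 5.82 after DAC/TSA. The groups were separate, with the lowest value in each on the replicate 3 array. The change of -0.52 ± 0.12 was a 1.43-fold fall (95% interval -0.78 to -0.26, limma adjusted p = 0.00225). It missed the threshold without control replicate 1 (adjusted p = 0.0129). Its dimmer probe, detected on 3 control arrays and on 1 treated array, fell by 0.39 ± 0.10 (adjusted p = 0.00632), so that both Dusp10 probes passed in the same direction.

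Dusp16 read 9.28, 9.31 and 9.25 in controls and 9.02, 9.11 and 8.81 after treatment. The treated cultures were all lower but more spread out, with an SD of 0.15 against 0.030 in controls. The log2 change of -0.30 ± 0.096 (95% interval -0.51 to -0.09) did not pass the threshold (limma adjusted p = 0.0175), and did so with the replicate block (adjusted p = 0.00275). The other Dusp16 probes had overlapping groups and changes of -0.28 (adjusted p = 0.0351) and -0.06 (adjusted p = 0.795).

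Taken probe by probe, 3 of the 16 phosphatase probes were raised, 4 were lowered and 9 did not pass, beside 45.8% of all tested probes that passed in either direction. No gene had probes that changed in opposite directions. Probes of 1 gene measure the same RNA samples and are no replicates of the treatment.

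**Figure D2:**
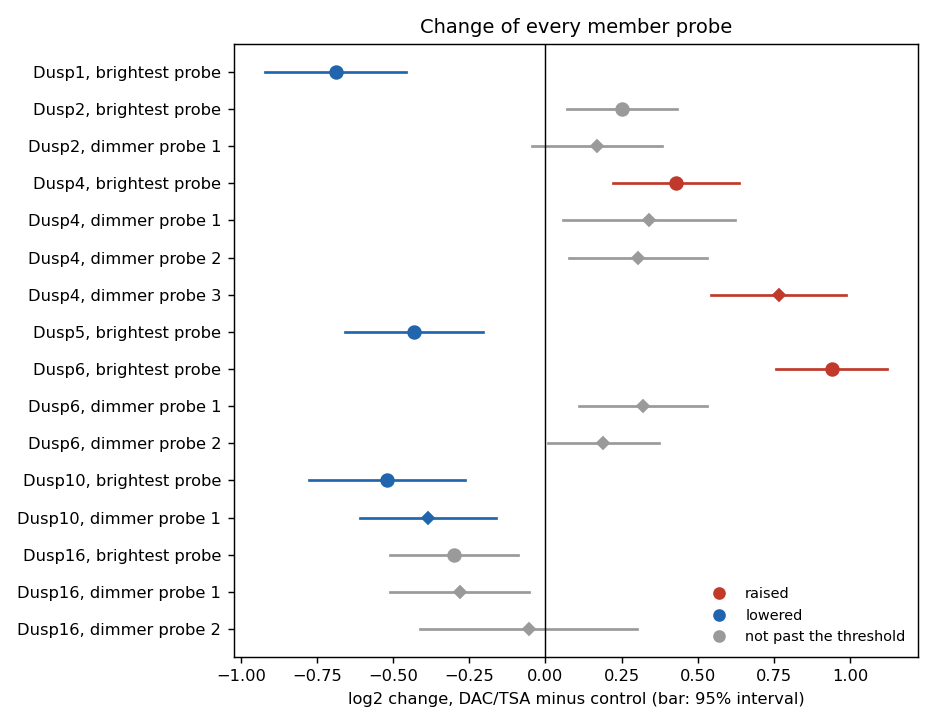
Log2 change (DAC/TSA minus control) of each of the 16 probes of the 7 measured genes with its 95% interval, coloured by whether the probe was raised, was lowered or did not pass the threshold. The brightest Dusp6 probe lies at 0.94 and the other Dusp6 probes at 0.32 and 0.19, whereas the 4 Dusp4 probes range from 0.30 to 0.77.

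Because both agents act on chromatin, the promoter sequences of these genes were examined in RefSeq (GRCm38.p6). A window of 250 bases before the annotated start was found for 8 of the 10 genes, and Dusp4 and Spry4 were not among them. The windows were rich in CpG dinucleotides, the sites of DNA methylation, with 28 in Dusp1, 27 in Dusp16, 21 in Dusp5, 19 in Dusp2, 17 in Dusp10 and 16 in Dusp6, and with 23 each in Spry1 and Spry2. The median over 32841 mouse promoters was 6, with quartiles of 2 and 16. Those promoters were not limited to genes measured on these arrays, and a comparison with measured genes alone was not made. The raised Dusp6 had the fewest CpG of the 8 and the lowered Dusp1 the most. The lowered Dusp10, however, was next to Dusp6 with 17, and the raised Dusp4 had no window. A relation of CpG number to direction was not tested. Methylation itself was not measured in these samples.

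The 200 bases before the start of Dusp6 (chr10:99263031-99263230, plus strand) and of Dusp1 (chr17:26508473-26508672, minus strand) are shown because these genes had the largest rise and the largest fall. Both are written 5′ to 3′ in the direction of the gene, with capitals for matches to TGACG, the core of the cAMP response element, on either strand.
Dusp6: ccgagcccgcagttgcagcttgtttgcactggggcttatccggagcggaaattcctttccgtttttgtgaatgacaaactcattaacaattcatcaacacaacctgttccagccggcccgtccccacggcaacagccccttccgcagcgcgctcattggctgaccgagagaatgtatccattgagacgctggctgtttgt
Dusp1: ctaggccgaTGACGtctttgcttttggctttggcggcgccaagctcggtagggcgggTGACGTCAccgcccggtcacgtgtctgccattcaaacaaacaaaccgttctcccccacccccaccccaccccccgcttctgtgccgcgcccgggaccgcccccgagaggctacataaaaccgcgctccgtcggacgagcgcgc
The stretch of Dusp6 holds 13 CpG and no match, and that of Dusp1 holds 24 CpG and a full palindromic element, TGACGTCA, 143 bases before the start, in which a match on each strand overlaps, with a further match upstream.

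Searched on both strands of the 250-base windows, TGACGTCA occurred in Dusp1 alone of the 8 genes and in 1.55% of all promoters. TGACG, which every full element contains, occurred in Dusp1, Dusp5 and Dusp16 and in 17.8% of all promoters. The GC box GGGCGG was present in Dusp1, Dusp2, Dusp5, Dusp10, Dusp16 and Spry1, against 32.7% of all promoters, but not in Dusp6 or Spry2. TATAA was found in Dusp5 alone (22.8% of all promoters). Neither the AP-1 motif TGANTCA (6.75% of all promoters) nor the ETS motif CCGGAAGT (2.88%) was found in any of the 8. These are matches of letters only, and occupancy by a factor was not measured.

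Other inhibitors of the same loop were called in both directions too. Over all genes 27.0% were raised and 25.8% lowered, and the lists here and below are to be read against these shares. Of 21 inhibitors listed, 11 were measured. Of these, 3 (27.3%) were raised and 3 (27.3%) lowered, close to the shares over all genes, and 5 did not pass (median log2 change 0.26). The raised count was 5 with the replicate block and 5 without control replicate 3. Lrig1, a membrane protein that promotes degradation of EGF receptor family members, rose 2.35-fold (log2 change 1.23), Errfi1, a cytoplasmic inhibitor of the EGF receptor, 1.63-fold (0.71), and Socs3, an inhibitor of cytokine receptor signalling, 1.57-fold (0.65). Both measured relatives of the phosphatase members were lowered in the reported fit. Dusp7, the cytoplasmic ERK phosphatase most like Dusp6, had a log2 change of -0.76 ± 0.087, a 1.70-fold fall (limma adjusted p = 9.93e-06), opposite to Dusp6, and missed the threshold under median scaling (adjusted p = 0.0153). Dusp8, which acts on JNK and p38 like Dusp10 and Dusp16, had a change of -0.35 ± 0.099 (adjusted p = 0.00906), its other probe gave -0.35 (adjusted p = 0.0120), and it missed the threshold when any 1 of 4 of the arrays was left out (adjusted p up to 0.0434 without DAC/TSA replicate 1). Lrig3 fell 2.52-fold (log2 change -1.34). Of the relatives of the Sprouty genes only Spred1, which restrains Raf, was measured, and its change of 0.28 did not pass (adjusted p = 0.0262), though it did with the replicate block (adjusted p = 0.00668) and without control replicate 3 (adjusted p = 0.00807).

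A further list held the atypical dual-specificity phosphatases, which lack the MAP kinase-binding domain, together with PRL and Cdc14 phosphatases. Of its 23 genes 12 were measured, with 2 raised, 3 lowered and 7 that did not pass (median -0.03). Dusp19 rose 1.94-fold (log2 change 0.96) and Ptp4a3 1.44-fold (0.53). Ptp4a1 fell 2.84-fold (-1.51) and Dusp3, which dephosphorylates ERK and JNK, 1.68-fold (-0.75), although a pair of dimmer Dusp3 probes did not pass and the mean over its probes was -0.16 (adjusted p = 0.101). With the replicate block 5 of these 12 genes were lowered. The probes of Dusp11, an RNA phosphatase in spite of its name, disagreed: the brighter fell (-1.49) and the other rose (0.70). Of the tyrosine and serine phosphatases that also act on MAP kinases, 9 of 12 were measured. Here 3 were lowered, Ppm1d (-0.98), Ppm1b (-0.46) and Phlpp1 (-0.39), and none was raised by limma at this threshold. Phlpp1 missed the threshold without control replicate 1 (adjusted p = 0.0104), and Ppm1b without control replicate 2 (adjusted p = 0.0106) or DAC/TSA replicate 2 (adjusted p = 0.0102). The dimmest of 3 Ppm1b probes did not pass either (-0.17, adjusted p = 0.138). The block gave 6 lowered.

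The kinases that these phosphatases switch off or that lie above them were changed in part. In the ERK cascade, 8 of 17 listed genes were measured, of which 4 were raised and 2 were lowered (median log2 change 0.45). Lamtor1 and Lamtor2, which anchor an ERK scaffold on late endosomes, rose 2.00-fold and 1.99-fold, and Araf, a Raf kinase, rose 1.51-fold on its brightest probe. The other Lamtor2 probes gave 1.43-fold and, without passing, 1.19-fold (adjusted p = 0.0240). Map2k5, the kinase of ERK5, fell 1.54-fold and Map3k8, which activates MEK, 1.46-fold. In the JNK and p38 cascades, 6 of 20 measured genes were raised and 7 lowered (median -0.16). No control array detected 2 of the raised genes, and leaving out any 1 array left 5 to 6 genes lowered. Mapkapk3, a kinase activated by p38, rose 2.38-fold, Map3k12 2.04-fold and the p38 isoform Mapk11 1.71-fold, whereas the p38 isoform Mapk12 fell 2.74-fold, Map3k1 2.24-fold and Map3k6 2.03-fold. The second probe of Map3k12 changed by -0.15 and did not pass. Median scaling gave 6 raised and 3 lowered in these cascades, and 1 raised and 0 lowered in the ERK cascade.

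Upstream of the loop, growth factor ligands were raised in 6 and lowered in 2 of 14 measured genes, and their median log2 change was 0.27. The median was 0.19 when the 3 ligands that no control array detected were set to their bounds, or to 0 where there was none (Igf1). Leaving out any 1 array but DAC/TSA replicate 3 left 1 ligand lowered, as Nrg1 then missed the threshold. Betacellulin (Btc), a ligand of the EGF receptor, rose 6.19-fold, Csf1 1.90-fold and Fgf7 1.67-fold, and Gdnf fell 2.97-fold and Nrg1 1.24-fold. Of 12 receptor tyrosine kinases measured, 3 were raised and 5 lowered (median -0.07), among them Ddr1 (2.05-fold higher), Axl (1.96-fold higher on its brighter probe), Fgfr1 (1.96-fold lower), Erbb2 (1.72-fold lower) and Insr (1.55-fold lower). The other Axl probe, which no control array detected, did not pass (log2 change 0.22, adjusted p = 0.0411). Leaving out any 1 array left 3 to 4 receptors lowered, with 3 in the run without DAC/TSA replicate 2. Flt1, also past the threshold, was detected on no control array and on 2 treated arrays, and missed the threshold when any 1 of 5 of the arrays was left out. Of the 12 adaptors and Ras regulators measured, 1 was raised, Rras (2.00-fold), and 3 were lowered, Gab1 (1.78-fold), Rasa2 (1.46-fold) and Mras (1.28-fold, although its other probe was raised and the mean over both was 0.040, and its call was lost when any 1 of 4 of the arrays was left out). The dimmer Rasa2 probe did not pass (-0.30, adjusted p = 0.0232). With the replicate block 6 of these 12 genes were lowered.

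Downstream, the transcripts that ERK induces together with Dusp1, Dusp4 and Dusp6 were called in both directions. Of 22 measured, 7 (31.8%) were raised, 6 (27.3%) lowered and 9 did not pass (median log2 change 0.17). These shares lie near the 27.0% raised and 25.8% lowered of all genes. Phlda1 rose 2.55-fold, the zinc finger factor Egr1 2.32-fold and Ier3 2.09-fold. Fosl2 fell 2.16-fold on its brighter probe, with -0.14 on the other (adjusted p = 0.218), Klf6 fell 1.93-fold and Myc 1.69-fold. Of the ETS factors and SRF partners, which bind the promoters of such genes, 4 of 8 measured were lowered and the rest did not pass (median -0.46). Srf itself fell 3.48-fold, the ETS repressor Erf, which 2 of 3 treated arrays detected, 2.11-fold and the SRF partner Elk4 1.88-fold. None of the 4 measured kinases downstream of the MAP kinases passed by limma (median -0.02).

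Over all of these lists, 132 of 219 genes were measured, of which 32 (24.2%) were raised, 38 (28.8%) lowered and 62 not past the threshold, with a median log2 change of -0.04. These shares lie close to the 27.0% and 25.8% of all genes. Median scaling of the arrays gave 21 raised and 19 lowered. Of the 50 list genes named here, 26 had the same call under every alternative run. Under median scaling 17 missed the threshold, among them Araf, Lamtor1, Map2k5, Map3k8, Socs3, Csf1, Fgf7, Dusp19 and Elk4, with no change of direction.

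**Figure D3:**
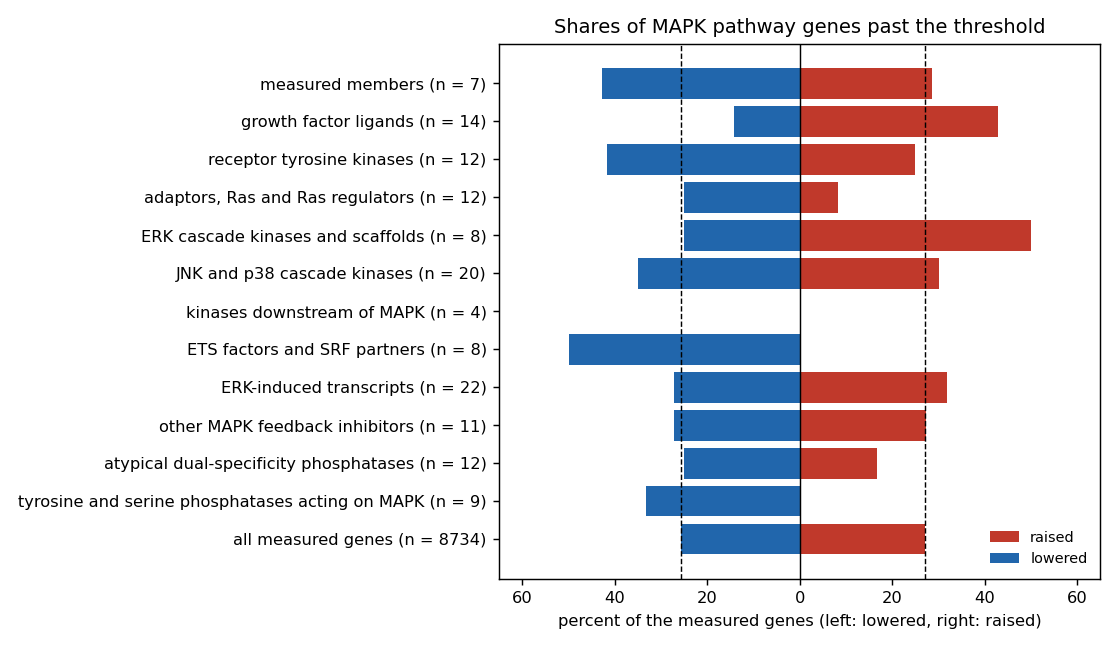
Share of the measured genes of each MAPK pathway list that were raised (right) or lowered (left) by DAC/TSA at an adjusted p under 0.01, in percent, beside the share over all 8734 genes. Both directions appear in most lists, and the shares over all genes were 27.0% raised and 25.8% lowered.

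The direction of each measured phosphatase gene was kept under all 15 other settings tried, although several calls were not. Not all of these settings could turn a direction. The other detection filters and the replicate block left each log2 change as it was. The choice of probe could not alter Dusp1 or Dusp5, which had 1 probe each. When arrays were scaled to a common median in place of quantile normalisation, Dusp6 alone passed, with a log2 change of 0.96 (limma adjusted p = 0.00163). Dusp1 then missed with -0.67 ± 0.23 (adjusted p = 0.0484), Dusp4 with 0.45 ± 0.13 (adjusted p = 0.0294), Dusp5 with -0.37 ± 0.12 (adjusted p = 0.0433) and Dusp10 with -0.48 ± 0.13 (adjusted p = 0.0182). The changes stayed near those of the reported fit, although Dusp5 went from -0.43 to -0.37 and Dusp10 from -0.52 to -0.48. The standard errors were larger, but only slightly for Dusp10 (0.126 against 0.118).

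**Figure D4:**
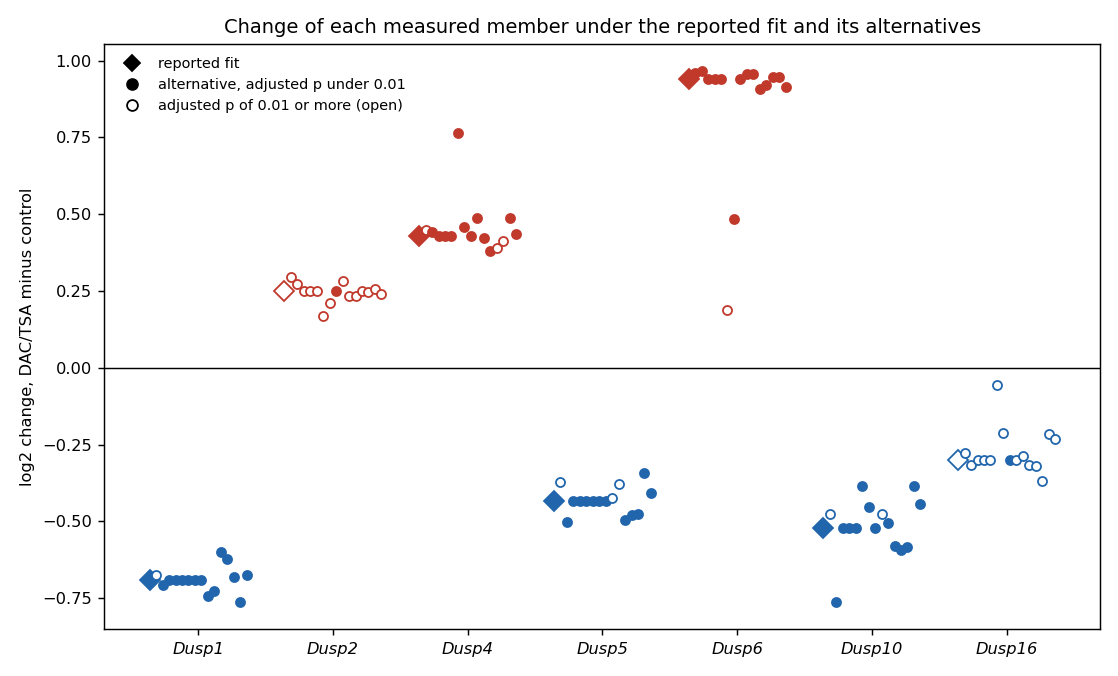
Log2 change (DAC/TSA minus control) of the 7 measured phosphatase genes in the reported fit (diamonds) and under 15 alternative settings (circles), filled where the adjusted p was under 0.01. Every point of a gene lies on the same side of 0, and Dusp6 falls from 0.94 to 0.19 on its dimmest probe and to 0.48 as the mean over its probes.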

How the data were processed

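Total RNA from 3 control and 3 DAC/TSA cultures was labelled and hybridised to Illumina Mouse WG-6 arrays. The authors exported, per probe, the mean bead intensity (linear, not normalised) and a detection p-value. They also deposited a table of log2 values after quantile normalisation. The table was recomputed here from the intensities within 4.97e-14 and holds the 15131 probes detected on at least 2 of 3 arrays of a group. Tools named in the submitters' processing notes are limited to limma.

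Here, log2 quantile-normalised intensities of the 16760 probes with a detection p of at most 0.01 on at least 1 array were fitted with limma 3.58.1 in R 4.3.3 (lmFit, eBayes, no covariate), with Benjamini-Hochberg adjustment over all of them and a threshold of 0.01. Changes are DAC/TSA minus control, and folds are taken from them. The brightest probe stood for a gene. Where no array of a group detected a probe, a bound was computed against the lowest detected signal of each array. Of the probes in the value table, 13126 had 1 symbol in the platform annotation, 6 had several and 1999 none, and 13113 matched a current identifier in RefSeq. The 3634 tested probes without a name stayed unnamed here. The number of arrays limits the precision. No scan date or slide was given in the sources used here, so no batch was tested, and nothing in the labels ties equal replicate numbers to a shared day. Residuals of arrays with equal numbers correlated at 0.34, 0.24 and 0.65, all above 0.1, and the number was therefore fitted as a block as an alternative. Control 1 with DAC/TSA 2 (0.22) and control 2 with DAC/TSA 1 (0.37) correlated about as much. Replicate 3 correlated at -0.53 to -0.34 with the other numbers. These values therefore set replicate 3 apart but do not show that numbers 1 and 2 pair. The p-values reflect only how far these cultures differ among themselves, with the spread of each probe drawn by eBayes towards that of all tested probes. One label of the treated samples reads TCA where the others read TSA.

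Named in the text are all probes of the members, up to 3 raised and 3 lowered genes of each list with the largest changes, and measured relatives (Dusp7, Dusp8, Spred1). The members and lists were chosen with earlier results of these data known. Alternatives were median scaling, normexp background correction, other filters, other probes per gene, a 2-fold minimum, the replicate block, leaving out each array and, added after seeing the data, leaving out both replicate 3 arrays. The fit was tested on simulated data with independent noise on each array, so the correlation of residuals seen here was not covered.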

Additional observations from a re-analysis of the deposited data

How the results depend on the processing

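None of the 7 measured members reversed its direction under the 15 alternatives that gave it a value. The other detection filters and the replicate block are among these and could not turn a direction, because they left each log2 change as it was. Median scaling left 1 member raised and 0 lowered, where the reported fit gave 2 and 3, and 21 pathway genes raised and 19 lowered instead of 32 and 38. Over all genes it gave 1335 raised and 815 lowered instead of 2358 and 2254, so that 62.1% of the called genes were higher, against 51.1%. The cause was not tested. In the lists, median scaling left 1 of the ERK cascade genes raised and 0 lowered, 3 ligands raised and 1 lowered, and 1 atypical phosphatase raised. It left 3 genes lowered each among the JNK and p38 kinases, the ERK-induced transcripts and the receptors, and 1 lowered each among the adaptors, the other feedback inhibitors and the tyrosine and serine phosphatases. On the dimmest probe of each gene 1 member was raised, because Dusp6 gave 0.19. A 2-fold minimum left 0 members raised and 0 lowered, 11 and 10 pathway genes, and 617 and 334 of all genes. With the replicate number as a block, Dusp2 (adjusted p = 0.00674) and Dusp16 (adjusted p = 0.00275) passed by limma as well, which made 3 members raised and 4 lowered, while the counts over all genes grew to 2837 raised and 2864 lowered of 8734. The block changed no other member's call, although it raised the feedback inhibitors called higher from 3 to 5, the adaptors called lower from 3 to 6, the atypical phosphatases from 3 to 5 and the other phosphatases from 3 to 6.

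Leaving out 1 array at a time gave 1 to 2 members raised and 1 to 3 lowered, 30 to 34 pathway genes raised and 30 to 36 lowered, and 2011 to 2384 of all genes raised and 1845 to 2317 lowered. The count of 1 lowered member arose without control replicate 1, and that of 1 raised member without DAC/TSA replicate 1 or 2. Among the list genes named, the dimmest probe turned the direction of Dusp11 (0.70), Dusp3 (0.10), Map3k12 (-0.15) and Mras (0.44), and the mean over the probes that of Mras (0.040). Leaving out both replicate 3 arrays kept 2 members raised and 3 lowered. Detection limits what can be said of the dimmer Dusp6 probes, which no control array detected. RNA amounts were measured in bulk cultures, so fewer expressing cells and less RNA per cell cannot be told apart.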
